A study of Mus musculus with 3 samples.

Results

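Mice sold as C57BL/6 come from several closely related breeding lines, called substrains, which have been bred apart long enough to carry different alleles of a small number of genes. The genes described here are 7 that are listed as differing between such lines: Gabra2, Wdfy1, Nnt, Ide, Entpd4, Cyfip2 and Tmem181b-ps. They were looked up by symbol among the 17992 genes counted in 3 mouse brain RNA libraries, as a check on whether the mice could be of different substrains. Of the 7 genes, 5 were counted, all with a mean over the libraries of at least 1 CPM (counts scaled to a common library total), as were 15558 genes in all. Nnt and Entpd4 had no row in the deposited counts. The members were chosen with measured values of these same libraries in view, so their differences are given as a description and without a test.

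The study sequenced RNA from the brains of adult mice labelled as WT (wild type) and as C57BL/6, with no substrain given. The sham library had the treatment label "No". The vehicle library, also labelled "No", was named as the model of middle cerebral artery occlusion, a form of stroke. The AGNHW library, labelled "Yes", was from animals on AGNHW at 3 mg/g/d, where AGNHW is a medicine of the Chinese tradition (Angong Niuhuang Wan), and its labels do not repeat the occlusion. Each group had 1 library, so no difference below has a replicate check, and "higher" and "lower" describe these libraries. Neither the brain region nor how many mice were pooled per library is stated.

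Totals were 18286151 counts in sham, 15718594 in vehicle and 18184691 in AGNHW. Neuron markers were even, with a summed level of 5683, 5826 and 5629 CPM in that order and 0 of 8 at 0 counts in any library. Astrocyte markers summed to 2564, 1860 and 2122 CPM, oligodendrocyte markers to 7306, 9497 and 8889 and microglia markers to 284.4, 245.3 and 260.6, with none of the 7 in each list at 0. The vehicle library stood apart by pituitary genes, whose 8 counted markers summed to 3748 CPM against 4.52 in sham and 4.60 in AGNHW. In sham 3 of these 8 markers, Gh, Prl and Ghrhr, were at 0. Brainstem and monoamine neuron markers (7 of 11 counted) summed to 36.4 CPM in sham, 88.0 in vehicle and 67.6 in AGNHW, and red blood cell markers (5 of 8 counted) to 52.8, 163.1 and 65.1. The astrocyte and microglia sums had the order of Cyfip2 given below, and none of the sums fell from sham through vehicle to AGNHW. The part of these lists in the members' values was not tested.

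Some background on the genes helps in reading their values. Gabra2 encodes the alpha-2 subunit of the GABA-A receptor, the chloride channel through which GABA inhibits neurons, and C57BL/6J mice carry a deletion in a Gabra2 intron that lowers its RNA and protein. Nnt encodes a mitochondrial enzyme that makes NADPH, and C57BL/6J mice lack several of its exons. Cyfip2 encodes a partner of the fragile X protein FMRP within the WAVE complex, which controls actin, and C57BL/6N mice carry an amino acid change in it. Ide encodes the insulin-degrading enzyme, which also cuts amyloid-beta, and a duplication that holds it occurs in some C57BL/6J stocks. Wdfy1 encodes an endosomal protein linked to Toll-like receptor signalling, Entpd4 a nucleotide-cleaving enzyme of the Golgi and lysosomes, and Tmem181b-ps is a transcribed pseudogene of the membrane protein gene Tmem181a. Counts per gene carry no bases of the reads, so the alleles themselves were not examined and the substrain of the mice was not tested.

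Of the genes on the list, 2 have close copies elsewhere in the genome, which matters because a read that matches more than 1 copy can be assigned in ways that depend on unknown counting settings. In the GENCODE M21 transcripts, 1405 of 1412 aligned bases (99.5%) are the same in the coding part of Tmem181a and in Tmem181b-ps. The lines below show the 120-base stretch with the most differences, read from bases 9 to 128 of the Tmem181a coding part and bases 1 to 120 of the Tmem181b-ps transcript, because a read from such a stretch has few bases by which the copies could be told apart. Capitals mark the bases that differ.
Tmem181a: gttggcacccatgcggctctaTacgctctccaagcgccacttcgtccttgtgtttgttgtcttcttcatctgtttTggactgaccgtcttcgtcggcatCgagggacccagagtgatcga
Tmem181b-ps: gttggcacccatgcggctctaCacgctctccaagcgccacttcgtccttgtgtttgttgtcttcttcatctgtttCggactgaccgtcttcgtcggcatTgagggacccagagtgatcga

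Over its whole annotated length, 52.3% of the 50-base words of Tmem181b-ps were its own, 44.4% were shared with Tmem181a and 21.7% with a further pseudogene, Tmem181c-ps. For Entpd4 the copies could not be told apart at all: the longest transcripts of Entpd4 and of its neighbour Entpd4b, each of 3589 bases, were identical, and so were all 8206 of their 50-base words. The counts list Entpd4b and not Entpd4. Values of Tmem181b-ps and Entpd4b are therefore uncertain as to which copy they measure. Gabra2, Wdfy1, Ide, Cyfip2 and Nnt shared no 50-base word with the other 9 genes compared (members and copies).

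Before a correction for transcript length and GC content, some members were lower in vehicle and lower again in AGNHW, and others differed less. Gabra2, Wdfy1 and Tmem181b-ps were lower in AGNHW than in sham by 2.79-fold to 4.28-fold, with the vehicle library between the other libraries. After the correction, given below, the ratio of vehicle to sham was 1.09 for Gabra2 and 0.894 for Wdfy1, with intervals that included 1. For Tmem181b-ps it was 0.526. Ide and Cyfip2 differed by less than 1.5-fold in every comparison. A gene was said to pass the size rule where CPM, scaled between libraries by the TMM method, differed 1.5-fold or more, its mean CPM reached 1 and its 95% interval (exact, conditional binomial) did not include 1. All ranges in brackets are 95% intervals and cover counting error only: these reads carry no molecular identifiers and cannot be taken as separate molecules.

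**Figure D1:**
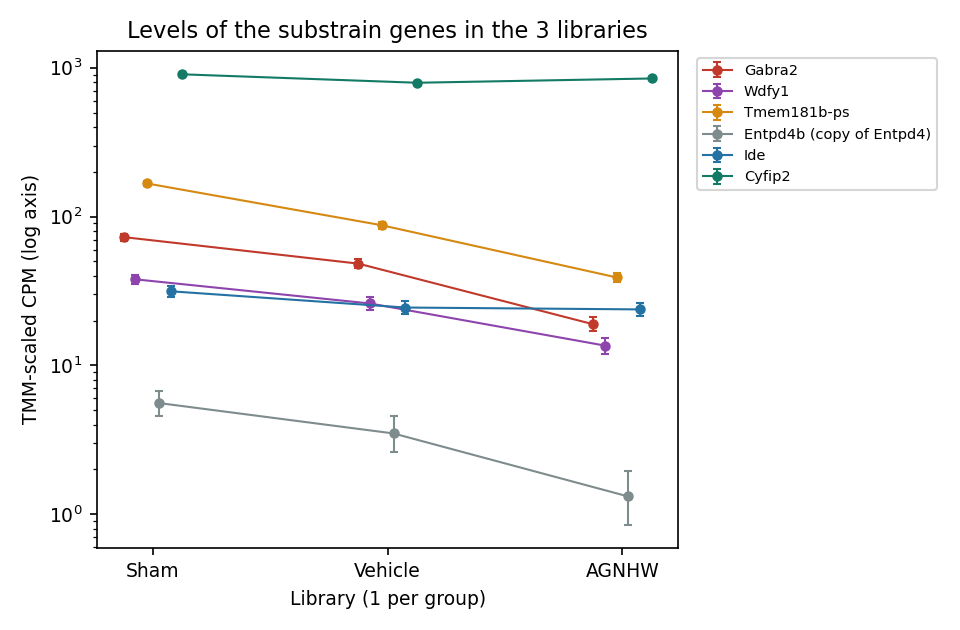
TMM-scaled CPM (log axis) of the 5 counted members and of Entpd4b in the sham, vehicle and AGNHW libraries, 1 library per group, with bars for the 95% exact counting interval. Gabra2 goes from 72.8 to 48.3 to 18.9 CPM, while Cyfip2 stays between 793 and 903 CPM.

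Gabra2 had 1369 counts in sham, 734 in vehicle and 345 in AGNHW, or 72.8 (69.0 to 76.7), 48.3 (44.8 to 51.9) and 18.9 (17.0 to 21.0) CPM. The intervals of the 3 libraries did not overlap, and sham was highest and AGNHW lowest. Its level was 1.51-fold lower in vehicle than in sham (1.38 to 1.65), 2.56-fold lower in AGNHW than in vehicle (2.25 to 2.91) and 3.85-fold lower in AGNHW than in sham (3.42 to 4.35). In bulk brain RNA such as this, fewer cells that express a gene and less RNA per cell cannot be told apart.

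Wdfy1 had 712 counts in sham, 396 in vehicle and 248 in AGNHW, or 37.8 (35.1 to 40.7), 26.0 (23.5 to 28.7) and 13.6 (11.9 to 15.4) CPM. The order was that of Gabra2, again with no overlap of the intervals. Wdfy1 was 1.45-fold lower in vehicle than in sham (1.28 to 1.65), which is just outside the 1.5-fold limit where Gabra2 was just inside it. It was 1.92-fold lower in AGNHW than in vehicle (1.63 to 2.26) and 2.79-fold lower in AGNHW than in sham (2.41 to 3.23).

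Tmem181b-ps had 3139 counts in sham, 1329 in vehicle and 712 in AGNHW, or 166.8 (161 to 172.8), 87.4 (82.7 to 92.2) and 39.0 (36.2 to 42.0) CPM. It had the lowest ratio of the members in vehicle against sham and in AGNHW against sham. The pseudogene was 1.91-fold lower in vehicle than in sham (1.79 to 2.04), 2.24-fold lower in AGNHW than in vehicle (2.05 to 2.46) and 4.28-fold lower in AGNHW than in sham (3.94 to 4.65).

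The parent gene Tmem181a did not have this order. It had 1146 counts in sham, 684 in vehicle and 897 in AGNHW, with ratios of 0.738 (0.671 to 0.813) in vehicle against sham and 1.09 (0.988 to 1.21) in AGNHW against vehicle, none of them past the size rule. Tmem181c-ps had 16, 11 and 3 counts, a mean below 1 CPM. Summed over the 3 copies, the level was 228.6 CPM in sham, 133.1 in vehicle and 88.3 in AGNHW. The sum kept the same order, and the part of it assigned to Tmem181b-ps was 73.0%, 65.7% and 44.2%. Whether reads that match several copies were left out of the counts is not known.

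Entpd4b, the copy listed in the place of Entpd4, had 105 counts in sham, 53 in vehicle and 24 in AGNHW, or 5.58, 3.48 and 1.31 CPM. Its order was that of Gabra2, at a much lower level. Entpd4b was 1.60-fold lower in vehicle than in sham (1.14 to 2.27), 2.65-fold lower in AGNHW than in vehicle (1.61 to 4.49) and 4.25-fold lower in AGNHW than in sham (2.71 to 6.92). Because its transcript is the same as that of Entpd4, these values may hold reads of either gene.

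Ide had 592 counts in sham, 372 in vehicle and 434 in AGNHW, or 31.5 (29.0 to 34.1), 24.5 (22.0 to 27.1) and 23.8 (21.6 to 26.1) CPM. Sham was the highest, and the intervals of vehicle and AGNHW overlapped. The ratio was 0.777 (0.681 to 0.887) in vehicle against sham, 0.972 (0.844 to 1.12) in AGNHW against vehicle and 0.755 (0.666 to 0.856) in AGNHW against sham. No ratio of Ide reached the size rule.

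Cyfip2, the most abundant member, had 16997 counts in sham, 12056 in vehicle and 15468 in AGNHW, or 903, 793 and 847 CPM. AGNHW lay between the other libraries, as it did for Tmem181a. The ratio was 0.878 (0.857 to 0.898) in vehicle against sham, 1.07 (1.04 to 1.09) in AGNHW against vehicle and 0.938 (0.917 to 0.958) in AGNHW against sham. A change of amino acid in Cyfip2, as in C57BL/6N, is not something that a count per gene records.

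Read against all 15558 genes, the members' counts were as follows. In vehicle against sham, 2 of 5 members passed the size rule as lower and 0 as higher, where 14.2% of all genes passed as lower and 8.66% as higher. In AGNHW against vehicle, 3 of 5 passed as lower and 0 as higher, against 2.56% and 4.01% of all genes. In AGNHW against sham, 3 of 5 passed as lower and 0 as higher, against 5.47% and 3.32%. The members' median log2 ratios were -0.53, -0.92 and -1.46 in the same order, while those of all genes were 0.01, 0.00 and 0.00 when rounded. Since the members were chosen on these values, and the comparisons share libraries, these counts describe the members and support nothing further.

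Among all genes, 11 (0.0707%) had 3 levels in the order sham, vehicle, AGNHW with each of the 3 intervals of the ratios excluding 1 and the ratio of AGNHW to sham past the size rule, and 3 of the 5 counted members were among them, as was Entpd4b. This order was looked for after the members' values were seen. Ranked from the lowest ratio of AGNHW to sham, Tmem181b-ps was 19, Entpd4b 20, Gabra2 22 and Wdfy1 54 of 15558, while Ide was 2131 and Cyfip2 6071. Among the 10099 genes with a mean of at least 10 CPM, Tmem181b-ps was 3, Gabra2 4 and Wdfy1 7.

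**Figure D2:**
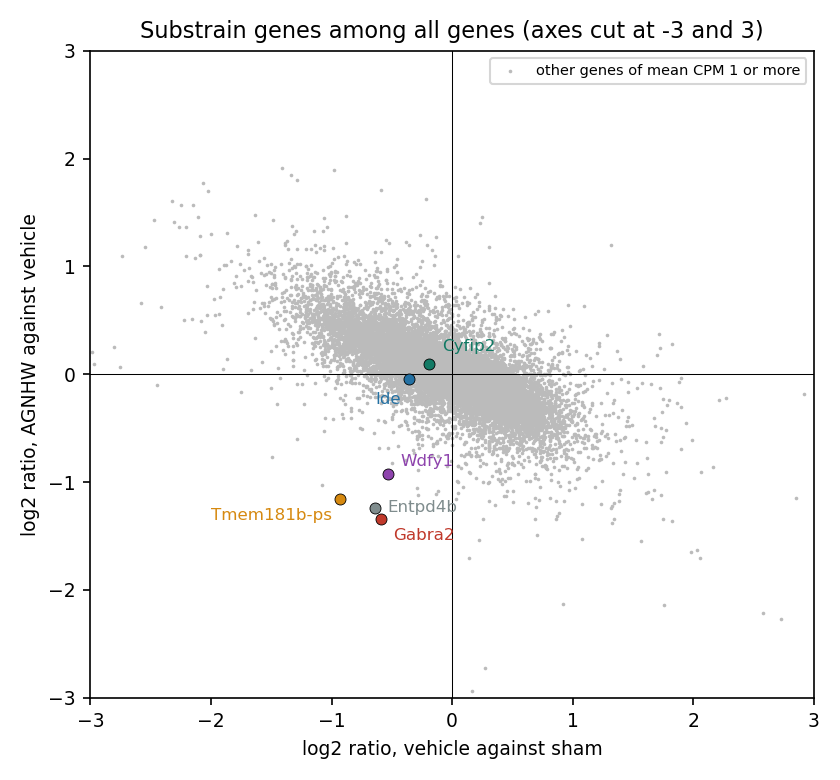
Log2 ratio of vehicle against sham (x axis) and of AGNHW against vehicle (y axis) for genes with a mean CPM of at least 1, in grey, with the counted members and Entpd4b in colour; 15 of 15558 genes lie outside the axes. Gabra2, Wdfy1, Tmem181b-ps and Entpd4b lie below 0 on both axes, apart from the main cloud (the vehicle library enters both axes), and Ide and Cyfip2 lie within the cloud.

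How far the vehicle level lay between those of AGNHW (0%) and sham (100%) was computed after the values were seen. For Gabra2 it lay at 54.5% ± 3.95 (standard error from counting), for Wdfy1 at 51.4% ± 6.41 and for Entpd4b at 50.9% ± 13.3. For Tmem181b-ps it lay lower, at 37.9% ± 2.19. The first 3 values differed by less than their counting errors.

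Transcript length and GC content went with the ratios of these libraries, and accounted for 49.9% of the variance of log2 ratios in vehicle against sham, 28.6% in AGNHW against vehicle and 40.3% in AGNHW against sham, over 9941 genes. The members differ in both: the longest Gabra2 transcript has 5852 bases and 38.4% GC, that of Wdfy1 4551 bases and 45.6% GC, and that of Tmem181b-ps 2426 bases and 48.4% GC. After the trend was subtracted, Gabra2 no longer differed by the size rule between vehicle and sham, with a corrected ratio of 1.09 (0.993 to 1.19), and the direction was turned. Wdfy1 had a corrected ratio of 0.894 (0.788 to 1.01) there, and Tmem181b-ps kept 0.526. The step from vehicle to AGNHW was larger for Gabra2 after correction, at a ratio of 0.321, and for Wdfy1, at 0.460, and it was 0.443 for Tmem181b-ps.

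Against sham, the corrected AGNHW ratios were 0.350 for Gabra2, 0.412 for Wdfy1 and 0.234 for Tmem181b-ps, all still past the size rule. Corrected values of Ide were 1.10, 0.831 and 0.914 in the 3 comparisons, and those of Cyfip2 lay between 0.990 and 1.01. The counts of members lower by the size rule became 1, 3 and 3, beside 6.72%, 1.60% and 3.16% of the 15234 genes with a corrected value. Of the members, Tmem181b-ps alone still had its 3 levels in falling order by the criterion above, since the interval of Wdfy1 in vehicle against sham then included 1. The place of the vehicle level moved to 113.5% for Gabra2 and 81.9% for Wdfy1, and was 38.2% for Tmem181b-ps and 48.6% for Entpd4b. Thus the low AGNHW level of the 3 members held in both treatments of the data. The intermediate vehicle level held for Tmem181b-ps and not for Gabra2, and that of Wdfy1 was no longer set apart from sham by its interval.

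**Figure D3:**
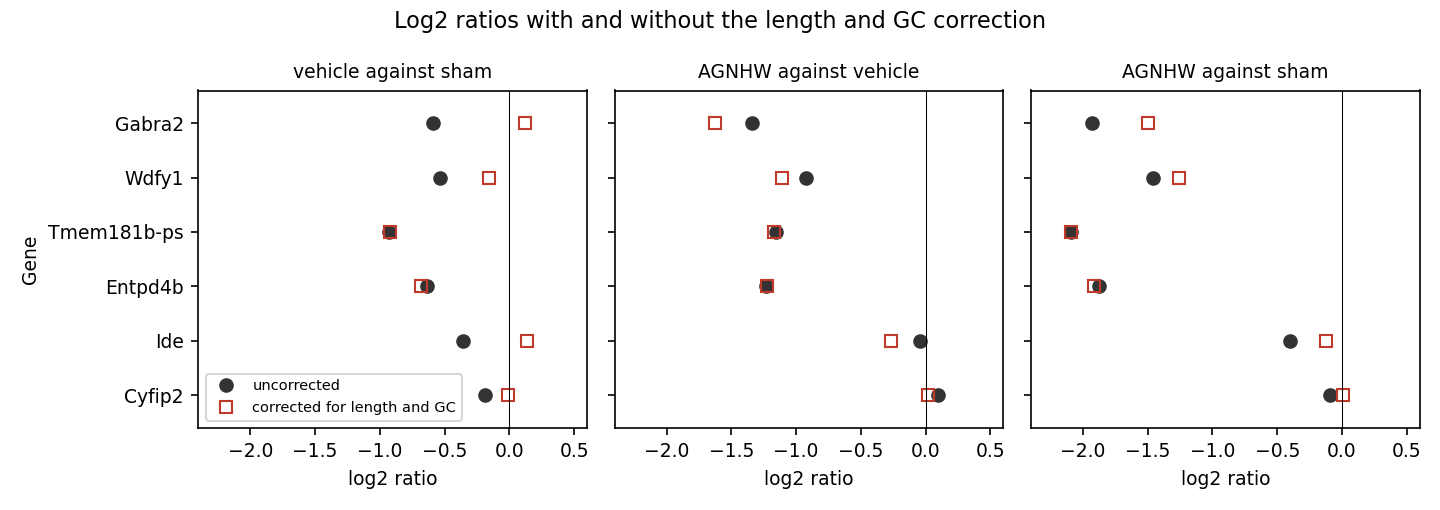
Log2 ratio (x axis) of each counted member and Entpd4b (y axis) in the 3 comparisons, before (filled circles) and after (open squares) subtraction of the trend with transcript length and GC content. In vehicle against sham the Gabra2 point moves from -0.59 to 0.12, while in AGNHW against sham it lies at -1.50.

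Gabra2 lies in a cluster of GABA-A receptor genes, so the genes beside it give its level some context. By gene order in the RefSeq GRCm38.p6 table, the nearest counted genes are Gnpda2 and Gabrg1 on one side and Gabra4 and Gabrb1 on the other. All 4 were lower in vehicle than in sham by the size rule, at ratios of 0.492 to 0.646, as Gabra2 was and as 14.2% of all genes were. None of the 4 was lower in AGNHW than in vehicle: their ratios were 1.13 or more, where that of Gabra2 was 0.392. In AGNHW against sham their ratios were 0.589 to 0.732, with 2 of 4 (Gnpda2 and Gabra4) past the size rule, and that of Gabra2 was 0.260. After the length and GC correction, Gnpda2 alone of the 4 was still past the size rule in vehicle against sham, with Gabrg1 at 1.01, Gabra4 at 0.710 and Gabrb1 at 1.12, and none was past it in AGNHW against sham.

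The 4 neighbours of Wdfy1 did not share its low AGNHW level. Scg2, Ap1s3, Mrpl44 and Serpine2 had ratios of 0.898 to 1.17 in AGNHW against sham, and none passed the size rule in any comparison, where Wdfy1 was at 0.359. Serpine2, a protease inhibitor gene beside it, had 2808, 2537 and 3020 counts in sham, vehicle and AGNHW.

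Beside Tmem181b-ps lie copies of the dynein light chain gene Dynlt1. Their likeness in sequence was not measured here, and their values may be uncertain too. Dynlt1b had 143 counts in sham, 222 in vehicle and 57 in AGNHW. It was highest in vehicle and lowest in AGNHW, with ratios of 1.92 in vehicle against sham, 0.214 in AGNHW against vehicle and 0.411 in AGNHW against sham, each past the size rule. After the correction the first of these, at 1.45, no longer passed. Dynlt1a, with 117, 90 and 108 counts, and Dynlt1c, with 32, 21 and 39, did not pass in any comparison.

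Of the neighbours of Ide, Cpeb3, an RNA-binding regulator of translation, was lower in vehicle than in sham at a ratio of 0.485, and Marchf5 did not pass. Beside Cyfip2, Adam19 was lower in vehicle than in sham at 0.578. Over the 17 measured neighbours of the 5 counted members, 6 were lower and 1 higher in vehicle against sham, where 14.2% and 8.66% of all genes were. In AGNHW against vehicle 1 was lower and 1 higher, beside 2.56% and 4.01% of all genes. In AGNHW against sham 3 were lower and 1 higher, beside 5.47% and 3.32%. Genes around the absent symbols were counted, among them Mrps30, Fgf10, Paip1 and 4833420G17Rik around Nnt, of which Fgf10 was lower in AGNHW than in sham at 0.650 (0.790 after the correction, which did not pass), and Slc25a37 and Entpd4b around Entpd4. Mrps30, at 1.545, passed as higher in vehicle against sham after the correction alone.

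**Figure D4:**
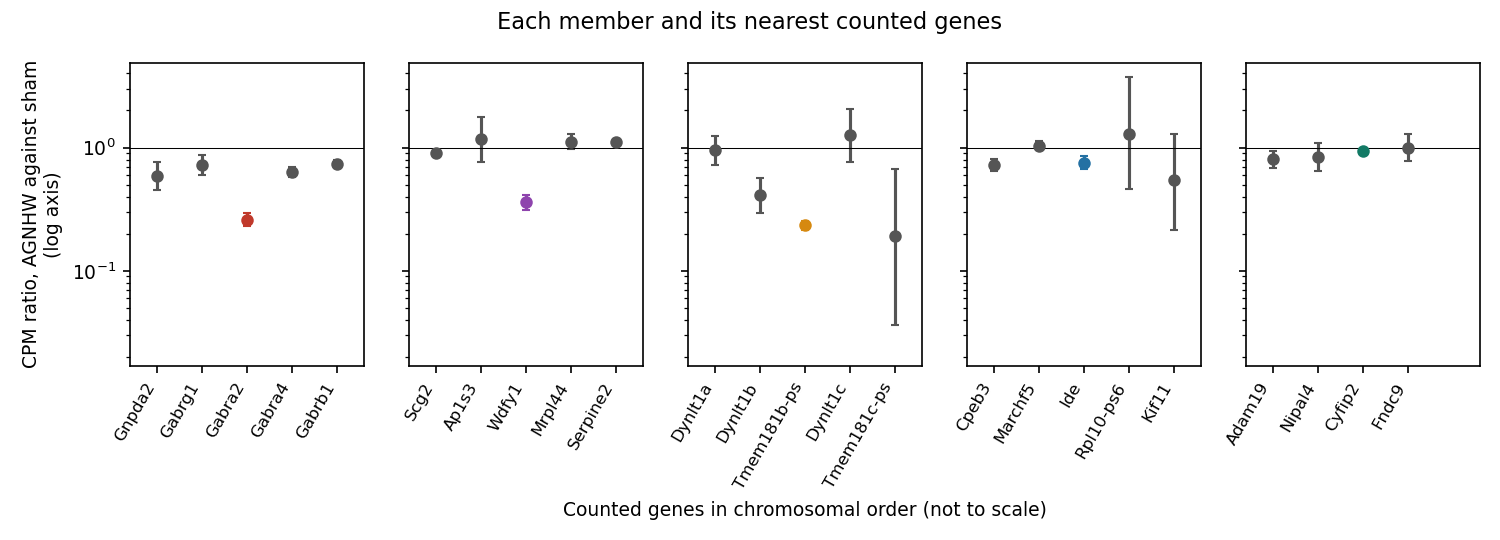
TMM-scaled CPM ratio of AGNHW against sham (log axis) for each counted member (coloured) and up to 2 of the nearest counted genes on either side (grey), in chromosomal order, with 95% exact counting intervals. Gabra2 and Wdfy1 lie below all of their neighbours, at 0.260 and 0.359.

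Compared with the alpha subunit genes Gabra3, Gabra4 and Gabra5, whose products take the same places in the receptor, Gabra2 had another order over the libraries. Gabra4 had 1264 counts in sham, 521 in vehicle and 780 in AGNHW, so it was lowest in vehicle, whereas Gabra2 was lowest in AGNHW. Per kilobase of longest transcript, Gabra2 was at 12.4 CPM per kb in sham, 8.25 in vehicle and 3.23 in AGNHW, which was 14.8%, 12.7% and 4.96% of the sum over Gabra2 to Gabra5. The share of Gabra4 was 19.5%, 12.8% and 16.0%, and that of Gabra3 42.4%, 49.5% and 50.5%. Gabra3 and Gabra5 did not pass the size rule in any comparison.

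**Figure D5:**
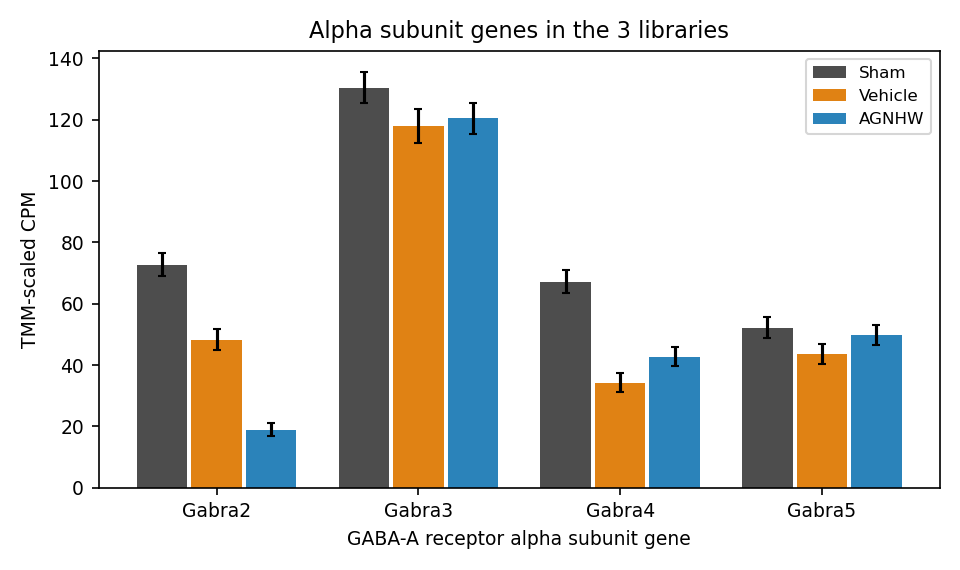
TMM-scaled CPM (y axis, from 0) of 4 GABA-A receptor alpha subunit genes in the sham, vehicle and AGNHW libraries, with 95% exact counting intervals. Gabra4 is lowest in vehicle, and Gabra2 is lowest in AGNHW at 18.9 CPM.

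The other genes of the GABA-A receptor list, 14 measured without Gabra2, were subunit genes and Gphn, which encodes the scaffold protein gephyrin and passed in no comparison. In vehicle against sham 7 of 14 were lower and 0 higher, where 14.2% and 8.66% of all genes were. The median log2 ratio of the 14 was -0.51. After the length and GC correction 1 was lower and 1 higher, beside 6.72% and 4.27% of genes with a corrected value. In AGNHW against vehicle 0 were lower and 1, Gabrb2, was higher (2.56% and 4.01% of all genes), with a median of 0.23. In AGNHW against sham 2 were lower, Gabra4 and Gabrb2, and 0 higher (5.47% and 3.32% of all genes), with a median of -0.25. Gabra4 no longer passed there after the correction. Gabrb2, which encodes a beta subunit, had 592 counts in sham, 68 in vehicle and 181 in AGNHW. Gabra2 was thus the one gene of the 15 measured on this list that passed as lower in AGNHW against vehicle, with or without the correction.

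The partners of Wdfy1 at the endosome, 9 measured, had 4 lower in vehicle than in sham: the endosomal small GTPase Rab5a, its tether Eea1, the double-stranded RNA receptor Tlr3 and Wdfy3. Of all genes, 14.2% passed as lower there. The order of these 4 was not that of Wdfy1, since none was lower in AGNHW than in vehicle. Rab5a had 1054 counts in sham, 415 in vehicle and 649 in AGNHW, and Eea1 488, 201 and 254. Both were lower in AGNHW than in sham, at ratios of 0.635 and 0.536, where 5.47% of all genes passed as lower. After the correction, Rab5a alone of these 4 was still lower in vehicle than in sham (0.592), with Eea1 at 0.819, Tlr3 at 0.758 and Wdfy3 at 0.680, and 0 of the 9 passed in AGNHW against sham. Unc93b1, at 0.622, passed as lower in vehicle against sham after the correction alone. The paralog Wdfy2, with 404, 358 and 366 counts, passed in no comparison, and Wdfy3, with 2382, 1065 and 1731, was lower in vehicle than in sham alone.

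For Cyfip2, 15 partners of the WAVE complex and FMRP were measured. Fmr1, which encodes FMRP, had 437 counts in sham, 181 in vehicle and 283 in AGNHW. It was lower in vehicle than in sham at a ratio of 0.512, as were the WAVE subunit genes Abi2 at 0.533 and Wasf1 at 0.624, and 0 were higher. Of all genes, 14.2% passed as lower and 8.66% as higher there. After the correction Wasf1 still passed, and Fmr1 at 0.776 and Abi2 at 0.796 did not. Abi3, at 0.527, was lower in vehicle than in sham after the correction alone. None passed in the comparisons that hold AGNHW, and the paralog Cyfip1, with 940, 553 and 761 counts, passed in none of the 3.

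A list drawn up around amyloid-beta and insulin breakdown held 11 other peptidase genes, not all of which encode enzymes that cut these peptides. Of the 11, the angiotensin-converting enzyme gene Ace and Mmel1 were higher in vehicle than in sham, at 1.57 and 1.70. Of these Ace alone passed after the correction. In the same comparison 1 was lower, Mme, which encodes neprilysin and was named after its value was seen. Mme was not past the rule after the correction. None of the 11 passed in the comparisons with AGNHW. The Ide paralogs Nrd1 and Pitrm1 passed in no comparison. Nnt itself had no row, but 22 genes of NADPH supply and mitochondrial antioxidant defence were measured. In vehicle against sham 2 were lower, Aldh1l2 and the mitochondrial NAD kinase gene Nadk2, and 5 were higher, among them the lipid peroxide-reducing enzyme gene Gpx4 with 4748 counts in sham, 6848 in vehicle and 6029 in AGNHW. Of all genes, 14.2% were lower and 8.66% higher in that comparison. After the correction the 5 higher genes became 0. In AGNHW against vehicle none of the 22 passed. In AGNHW against sham Aldh1l2 and Nadk2 were lower, where 5.47% of all genes were, and Aldh1l2 alone passed after the correction. Of 8 enzymes related to Entpd4 (Entpd4b left out), Entpd3 was higher in vehicle than in sham at 1.54 and none passed otherwise before the correction. After it, Entpd3 still passed there, as did Entpd1 at 1.555, and none passed in the comparisons with AGNHW.

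A second list held 8 further genes or neighbours of genes reported to differ between C57BL/6 lines. Mmrn1 and Nlrp12 had no row, and Crb1 and Naip1 had a mean below 1 CPM, which left 4 measured, of which 3 are described. Fgfbp3, which lies with Ide in the duplication, had 144, 98 and 124 counts and ratios of 0.842 (0.645 to 1.10), 1.05 (0.802 to 1.39) and 0.887 (0.692 to 1.14). Its intervals included 1 in all 3 comparisons. Btaf1, a gene close to Ide, was lower in vehicle than in sham at 0.369, and lower in AGNHW than in sham at 0.601. It was higher in AGNHW than in vehicle at 1.63, a different order from that of Gabra2. After the correction Btaf1 still passed in vehicle against sham (0.565) but not in AGNHW against vehicle (1.35) or against sham (0.766). Dock2, an exchange factor of white blood cells, had 70, 48 and 54 counts, and its intervals also included 1 in all 3 comparisons.

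The genes whose profiles over the 3 libraries were most like those of the members that passed the size rule were sought among 11464 genes with a mean of at least 5 CPM and no predicted or clone name, so that Gm43305, which fell in the same order, did not enter. The measure was the Euclidean distance between log2 CPM profiles centred on their means, and with 3 libraries it rests on 3 values per gene. The profiles were taken without the length and GC correction. For Gabra2 the nearest were Tmem181b-ps at 0.242, Wdfy1 at 0.364 and Erdr1 at 0.408. For Wdfy1 they were Erdr1 at 0.170, the immunoglobulin heavy chain gene Ighm at 0.249 and Gabra2. For Tmem181b-ps they were Gabra2, Wdfy1 at 0.450 and Erdr1 at 0.565. The members were chosen with these values in view, so their nearness to each other is a description. Entpd4b, too low to enter the search, was at 0.0734 from Gabra2. Distances were not computed after the correction, which moved these genes apart in vehicle against sham. The corrected log2 ratios there were 0.124 for Gabra2, -0.157 for Wdfy1, -0.924 for Tmem181b-ps and -0.686 for Entpd4b.

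Erdr1 had 490 counts in sham, 322 in vehicle and 183 in AGNHW, and Ighm had 300, 176 and 131. Both were lower in AGNHW than in sham by the size rule, at ratios of 0.385 (0.323 to 0.457) and 0.450 (0.364 to 0.554). Erdr1 had no length or GC value, so it could not be corrected.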

How the data were processed

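RNA was extracted with TRIzol and sequenced on an Illumina HiSeq instrument, per the labels. The authors deposited raw counts of reads for each gene symbol. HTSeq 0.6.0, TopHat2 2.0.12, Bowtie2 2.2.3 and the build mm9 are named per the submitters' processing notes. The sources used here do not give their order, settings or strand handling, so reads of near-identical copies and overlapping genes cannot be told apart. No gene summed to fewer than 21 counts over the libraries. No coordinates are printed, because the references at hand are of a later build.

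Libraries were grouped by title. Counts were scaled by TMM in edgeR 4.0.16 (R 4.3.3; factors 1.03, 0.968 and 1.00 for sham, vehicle and AGNHW). Ratios have 95% exact conditional binomial intervals, and intervals of levels are exact Poisson intervals. Log2 ratios used a prior count of 5. With 1 library per group no test was made. The length and GC trend was a spline fit (4 degrees of freedom per term) on genes of at least 10 CPM, using the longest transcript and GC content from GENCODE M21, found for 17569 symbols. Sequences and shared words come from GENCODE M21, gene order from RefSeq GRCm38.p6. Scripts ran in Python 3.11.15 with pandas 2.3.3, scipy 1.17.1 and Biopython 1.88, and the size rule and the trend fit were tested on simulated data.

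The members and the gene lists were chosen with earlier results of these data known. Named genes were the members, their copies, paralogs and 2 nearest counted genes per side, the other substrain loci, the 3 partner genes of each list with the largest log2 ratio in each comparison, and the 3 nearest profiles without a clone name; others were chosen after their values were seen. Alternatives were plain CPM, DESeq2 1.42.0 size factors, upper-quartile factors, TMM without the vehicle library, the correction, a looser (1.25) and a stricter (2) limit of the ratio, a mean of at least 5 CPM and a prior count of 1. A few other genes are not reported here.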

Additional observations from a re-analysis of the deposited data

How the results depend on the processing

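No paired analysis was possible because each group held 1 library, and for the same reason no replicate could be left out. In vehicle against sham, the count of members past the size rule was 2. It was 3 with plain CPM, 1 with upper-quartile factors and 1 after the length and GC correction. At the stricter limit of a ratio of 2 it was 0, and at the looser limit 4. The Gabra2 ratio in that comparison turned direction after the correction, to 1.09. The count of 3 members in falling order became 1 after the correction; that order was chosen after seeing the data. In AGNHW against vehicle the members' count of 3 became 2 at the stricter limit, and in AGNHW against sham the count of 3 became 4 at the looser limit. Both counts stayed at 3 under every other alternative run.

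Over all genes, 3555 passed in vehicle against sham, 1674 after the correction, 1018 at a ratio of 2 and 7124 at the looser limit. In AGNHW against vehicle 1022 passed, 727 after the correction, 421 at a mean of at least 5 CPM, 291 at a ratio of 2 and 3047 at the looser limit. In AGNHW against sham 1368 passed, 897 after the correction, 651 at a mean of at least 5 CPM, 371 at a ratio of 2 and 3806 at the looser limit. Stricter limits test or admit fewer genes by construction. With plain CPM the share of passing genes that were higher went from 37.9% to 23.9% in vehicle against sham and from 61.1% to 72.3% in AGNHW against vehicle. Of the 15 ratios of single members, all stayed within their counting intervals with DESeq2 size factors, upper-quartile factors and a prior count of 1, 12 did with plain CPM (the other 3 were of Cyfip2) and 5 after the correction. Depth limits Entpd4b, with 24 counts in AGNHW, and Tmem181c-ps, with 3.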

Other observations

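Besides Gabra2, Wdfy1, Tmem181b-ps and Entpd4b, the genes in falling order from sham through vehicle to AGNHW were 4930452G13Rik, Gm43305, Erdr1, Ighm, Fabp7, Kpna2 and Pde1a, found after the order had been seen in the members. Fabp7, a fatty acid-binding protein of radial glia and astrocytes, had 257, 167 and 138 counts in the 3 libraries and an AGNHW to sham ratio of 0.553 (0.447 to 0.683). Kpna2, a nuclear import receptor, had 462, 295 and 291 counts and a ratio of 0.649 (0.559 to 0.753). Pde1a, a cyclic nucleotide phosphodiesterase, had 2626, 1544 and 1673 counts and a ratio of 0.656 (0.617 to 0.698). After the length and GC correction 16 genes had this order, among them Tmem181b-ps, Entpd4b, Fabp7, Ighm, Gm43305 and 4930452G13Rik. Kpna2 (0.6735) and Pde1a (0.807) then no longer passed the size rule in AGNHW against sham and left the order.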
